A study of Mus musculus with 6 samples.

Results

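Chromatin accessibility was examined around 6 genes that encode transcription factors tied to the macrophage response to IL-4: Egr2, Klf4, Pparg, Irf4, Myc and Prdm1. A site belonged to a locus when it lay inside a fixed window of the mm9 mouse genome around that gene, whatever its signal. The windows held 278 of the 578591 sites measured: 46 at Egr2 (chr10:66900000-67100000), 52 at Klf4 (chr4:55440000-55640000), 52 at Pparg (chr6:115260000-115490000), 46 at Irf4 (chr13:30750000-30950000), 47 at Myc (chr15:61720000-61920000) and 35 at Prdm1 (chr10:44060000-44300000). Genes other than these 6 lie near the windows, and gene starts were not placed on mm9, so a site is named by its locus and its order along the window and is not assigned to a gene, exon or intron.

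The cells were bone marrow-derived macrophages (BMDMs) of wild-type C57BL/6 mice, C57BL/6J by the culture protocol, grown in medium conditioned by L929 cells, which secrete MCSF, in all groups. ATAC-seq, which uses a transposase to tag open DNA, was run on 6 libraries, 1 per group. Untreated and DMSO held no IL-4, and IL-4 was given in the groups IL-4, DMSO + IL-4, LatA + IL-4 and, without vehicle, MCSF + IL-4. IL-4 was used at 20 ng/mL for 24 hours in every group that names it. Latrunculin A (LatA), which blocks actin polymerization, was used at 1 uM, with DMSO as its vehicle, and MCSF (CSF1) at 100 ng/mL. The comparisons asked which sites differ with IL-4, and whether latrunculin A or MCSF altered accessibility when IL-4 was present. With 1 library per group, a ratio compares 2 libraries and not 2 conditions. Macrophage marker genes were not examined, since no genes were placed on mm9.

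IL-4 binds a receptor that activates STAT6, which enters the nucleus and, with transcription factors it induces, opens and activates enhancers of the tissue repair program. Egr2 is a zinc finger factor induced by STAT6 that acts at later enhancers, Klf4 cooperates with STAT6, Pparg encodes the lipid-sensing nuclear receptor PPARγ, and Irf4 is an interferon regulatory factor needed for much of the alternative activation program. Myc drives growth and metabolism and is also induced by IL-4 in macrophages, whereas Prdm1 encodes the repressor Blimp-1.

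Promoter letters were read for these genes because STAT6 binds DNA directly and because serum response factor (SRF), which binds the CArG box, has cofactors that sense actin. RefSeq held 11 promoter entries for 5 of the 6 genes in GRCm38.p6, a build other than that of the sites, and none was matched for Myc. In the 250 bases before each start, the letters TTC and GAA spaced by 4 bases, the STAT6 form, were in 0 of 11 entries and in 5.85% of all promoters. The form spaced by 3 bases was in 0 of 11 against 7.02%, and the AP-1 letters TGACTCA were in 0 of 11 against 4.46%, with both strands searched. The CArG box was in 4 of 11 entries, all of Egr2, against 1.47% of all promoters. The match was on the first stretch below in 1 entry and on the second in 3 overlapping entries, in each case before the start of its entry, and the capitals mark the CArG box.
First Egr2 stretch, chr10:67537484-67537513, plus strand of GRCm38.p6: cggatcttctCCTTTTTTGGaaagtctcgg
Second Egr2 stretch, chr10:67537787-67537816, plus strand of GRCm38.p6: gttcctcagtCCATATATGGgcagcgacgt
These letters were not placed relative to the sites below, and a match is not a bound site.

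Reads in sites ranged from 12387332 to 19889902 per library. Counts were scaled to the libraries' effective sizes and are given as normalized reads. A site was compared when its mean over the libraries was at least 20 normalized reads, which 93 of the 278 sites reached (33.5%), against 22.8% of all sites. The 93 comprised 21 sites at Egr2, 10 at Klf4, 15 at Pparg, 16 at Irf4, 20 at Myc and 11 at Prdm1. The other 185 sites had means from 0 to 19.9 normalized reads. Of the 93, 14 passed only through LatA + IL-4 and MCSF + IL-4, with a mean under 20 over the other 4 libraries, and a member so chosen had to be high in at least 1 of those. A peak was called by the authors in all 6 libraries at 64 of the 93 sites, against 49% of all tested sites.

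All sites of a window together gave each locus 1 level per library, in normalized reads per kb of site. Irf4 measured 40.6 in Untreated against 63.3 in IL-4, and 51.0 in DMSO against 69.8 when IL-4 was added. It reached 110 with LatA and 93.7 with MCSF, so that every IL-4 library lay above both libraries without IL-4. The same order held at Egr2, where the libraries without IL-4 measured 45.6 and 53.7 and the IL-4 libraries 60.2, 63.8, 109 and 103, in the order in which these groups were introduced. Myc followed it too, with 47.9 and 54.8 against 65.5, 74.4, 98.8 and 112, as did Pparg at lower levels, with 32.2 and 38.5 against 40.2, 45.5, 64.0 and 67.7. The intervals of IL-4 (37.3 to 43.2) and DMSO (35.8 to 41.3) overlapped at Pparg. At Klf4 the IL-4 library, at 51.8, did not pass the DMSO library, at 54.0. At Prdm1 DMSO, at 62.9, lay above IL-4, at 50.5, and above DMSO + IL-4, at 56.6. In later sentences the IL-4 libraries are given as IL-4 alone, with DMSO, with LatA or with MCSF.

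**Figure D1:**
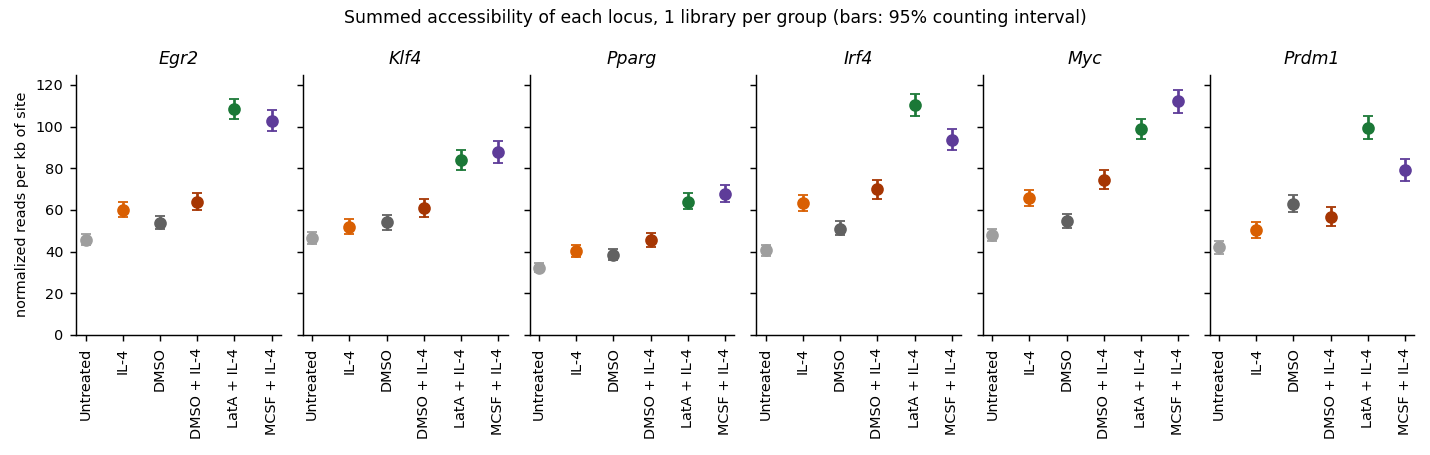
Normalized reads per kb of site, summed over all sites of each locus (vertical axis, from 0), in each of the 6 libraries; bars are 95% intervals that cover counting error only. LatA + IL-4 and MCSF + IL-4 are the highest libraries at all 6 loci, and DMSO lies above DMSO + IL-4 at Prdm1 alone.

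The ratio of IL-4 to Untreated in summed reads was 1.56 at Irf4 (95% interval 1.42 to 1.71) and 1.37 in the DMSO pair (1.25 to 1.5). These were the highest of the 6 loci, although at Myc the ratios were 1.37 (1.26 to 1.49) and 1.36 (1.24 to 1.48), which overlap them. Windows of 200 kb with similar read totals over the genome had median ratios of 1.06 and 1.01. Klf4 was lowest without vehicle, at 1.12 (1.01 to 1.23), and 1.13 (1.02 to 1.25) with it, which became 0.981 when only its tested sites were summed. Prdm1 gave 1.20 (1.08 to 1.34) without vehicle and 0.900 (0.810 to 0.999) with it, and was the only locus at which the pairs lay on opposite sides of 1 when all sites were summed. The intervals are exact and cover counting error only, because with 1 library per group the variation between replicates was not measured. Reads that carry no molecular identifier cannot be counted as independent molecules, which the intervals do not allow for.

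IL-4 was accompanied by more accessible sites than less accessible ones. In IL-4 against Untreated, 34 of the 93 sites were at least 1.5-fold higher, against 20.8% of all tested sites, and 2, both at Myc, were lower, against 8.88%. In DMSO + IL-4 against DMSO, 28 were higher (16.6% of all sites) and 8 lower (12.8%). In both comparisons, which share no library, 21 sites were higher (8.73% of all sites) and 0 lower (2.38%). Of the 21, 6 lay at Irf4, 4 each at Egr2, Klf4 and Pparg, 2 at Myc and 1 at Prdm1. With the filter on the 4 libraries without LatA or MCSF, 15 of 79 sites were higher in both (6.86% of all sites) and 0 lower (2.5%). By locus these were 4 of 19 at Egr2, 3 of 9 at Klf4, 2 of 13 at Pparg, 3 of 13 at Irf4, 2 of 16 at Myc and 1 of 9 at Prdm1. Irf4 thus no longer held the most. The median log2 ratio of the 93 sites was 0.39 without vehicle and 0.25 with it, against 0.10 and 0.01 over all tested sites. It was highest at Irf4 in both, at 0.79 and 0.46, and Prdm1 had 0.33 and -0.23. Medians by locus were not computed with the filter on the 4 libraries.

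An additive model of IL-4 and vehicle fitted to 4 libraries with edgeR's quasi-likelihood test gave 8 sites higher with IL-4 after Benjamini-Hochberg adjustment over all 132057 tested sites. This is 8 of 93, against 4.85% of all sites, and 0 sites were lower, against 0.81%. At an unadjusted p under 0.05, 31 of the 93 sites were higher and 1 lower, against 11.9% and 4.66% of all tested sites. The 8 sites were 3 at Irf4, 2 at Egr2, 2 at Klf4 and 1 at Myc. At Pparg and Prdm1 0 sites were called, with 5 and 1 higher at an unadjusted p under 0.05, and the smallest adjusted p was 0.0892 at Pparg and 0.165 at Prdm1. The model has 1 residual degree of freedom and assumes that vehicle does not alter the IL-4 effect. Its p-values set the IL-4 change against the disagreement of the 2 pairs of libraries, with a variance moderated over all tested sites. Agreement of the pairs may be technical.

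Irf4 held the 3 largest fitted IL-4 effects of the 8. Irf4 site 13 (chr13:30806454-30807053) measured 9.62 normalized reads in Untreated and 11.7 in DMSO, and with IL-4 it measured 94.2 alone, 91.6 with DMSO, 110 with LatA and 91.4 with MCSF. The IL-4 libraries were thus close to one another and far above both libraries without IL-4. The fitted log2 change was 3.12 ± 0.31 (SE, adjusted p = 2.18e-05), and the ratio was 9.80 (5.47 to 19.1) without vehicle and 7.82 (4.31 to 15.4) with it. Peaks were called in the 4 IL-4 libraries only, with fold enrichments over local background from 16.3 to 19.6, and their summits lay within 32 bp.

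Irf4 site 30 (chr13:30879824-30880245) lay 73.3 kb away and measured 2.22 normalized reads in Untreated, 3.60 in DMSO, 25.5 in IL-4 and 27.2 in DMSO + IL-4. It had 60.1 with LatA and 58.6 with MCSF, and it passed the filter only through these libraries, since its mean over the other 4 was 14.6, so that their high values are not a result. Its fitted log2 change with IL-4 was 3.16 ± 0.55 (adjusted p = 0.00204), on 3 and 4 reads in the libraries without IL-4, and the ratios were 11.5 (3.52 to 59.4) without vehicle and 7.56 (2.57 to 30.2) with it.

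Irf4 site 11 (chr13:30794075-30794673), named after its values were seen, lay 12.4 kb from site 13. It measured 12.6 in Untreated and 14.4 in DMSO, 68.7 in IL-4 and 87.9 in DMSO + IL-4, and 119 with LatA. Here MCSF + IL-4 was lowest of the IL-4 libraries at 37.5, still above those without IL-4. The fitted log2 change with IL-4 was 2.52 ± 0.31 (adjusted p = 1.19e-04). The log2 ratio of MCSF + IL-4 to IL-4 was -0.86, while that of LatA + IL-4 to DMSO + IL-4 was 0.44. The site with the most reads at Irf4, site 1 (chr13:30751540-30752552), was not called, with 135 in Untreated and 200 in DMSO against 119 with IL-4 alone and 156 with IL-4 and DMSO.

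At Egr2 both called sites lay near the end of the window, 4.21 kb apart. Egr2 site 42 (chr10:67091674-67092115) measured 11.8 in Untreated and 5.40 in DMSO, 45.2 in IL-4 and 48.3 in DMSO + IL-4, and then 123 with LatA and 96.1 with MCSF. Each treatment library was above both other IL-4 libraries, which were above both without IL-4. The fitted log2 change with IL-4 was 2.41 ± 0.40 (adjusted p = 0.00127), and peak summits lay within 12 bp in the 4 IL-4 libraries. Egr2 site 44 (chr10:67095815-67096396) measured 5.92 in Untreated and 12.6 in DMSO, and with IL-4 it measured 22.6 alone, 42.1 with DMSO, 67.5 with LatA and 57.4 with MCSF. Its log2 change with IL-4 was 1.81 ± 0.41 (adjusted p = 0.0126). The site with the most reads, Egr2 site 25 (chr10:67000037-67000693), was close in the pair without vehicle, with 112 in Untreated and 114 in IL-4, and measured 140 in DMSO and 124 in DMSO + IL-4.

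Klf4 combined sites that were higher with IL-4 and a strongest site that held fewer normalized reads in IL-4 than in Untreated. Klf4 site 42 (chr4:55588066-55588666) measured 8.14 in Untreated and 7.20 in DMSO, and with IL-4 it measured 31.4 alone, 53.2 with DMSO, 52.7 with LatA and 58.6 with MCSF, and its fitted log2 change was 2.39 ± 0.40 (adjusted p = 0.00151). Klf4 site 33 (chr4:55553881-55554406) measured 8.14 in Untreated and 10.8 in DMSO, and with IL-4 it measured 32.4 alone, 32.2 with DMSO, 40.1 with LatA and 80.8 with MCSF, with a log2 change of 1.77 ± 0.40 (adjusted p = 0.0129). Both had peaks in the 4 IL-4 libraries only.

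Klf4 site 30 (chr4:55545074-55546044), the strongest of the locus, held 19.9% of its reads. It measured 181 in Untreated against 126 in IL-4, and 190 in DMSO against 110 in DMSO + IL-4, but 257 with LatA and 242 with MCSF. IL-4 alone and IL-4 with DMSO were lower than both libraries without IL-4, and both treatment libraries were higher than all others, with log2 ratios of 0.65 and 0.35 to their IL-4 controls once the trend with reads was removed. The IL-4 ratio was 0.696 (0.557 to 0.865) without vehicle and 0.580 (0.447 to 0.746) with it. The fitted log2 change was -0.65 ± 0.19 with an adjusted p of 0.0565, which became 0.0495 when libraries were scaled by total reads and 0.0388 with median-of-ratios size factors. Without this site, the summed IL-4 ratio of the locus was 1.27 and, with vehicle, 1.3.

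Myc site 41 (chr15:61888896-61889419) differed from the others in having a peak in all 6 libraries. It measured 48.8 in Untreated and 56.7 in DMSO, and with IL-4 it measured 87.4 alone, 145 with DMSO, 133 with LatA and 172 with MCSF, with a log2 change of 1.10 ± 0.24 (adjusted p = 0.00874). It lay 1.03 kb from the strongest site of the locus, Myc site 40 (chr15:61887872-61888390), which measured 66.6 in Untreated and 117 in DMSO against 121 with IL-4 alone and 129 with IL-4 and DMSO. There the low library was Untreated alone, and the fitted IL-4 change of 0.49 ± 0.22 did not pass (adjusted p = 0.272).

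**Figure D2:**
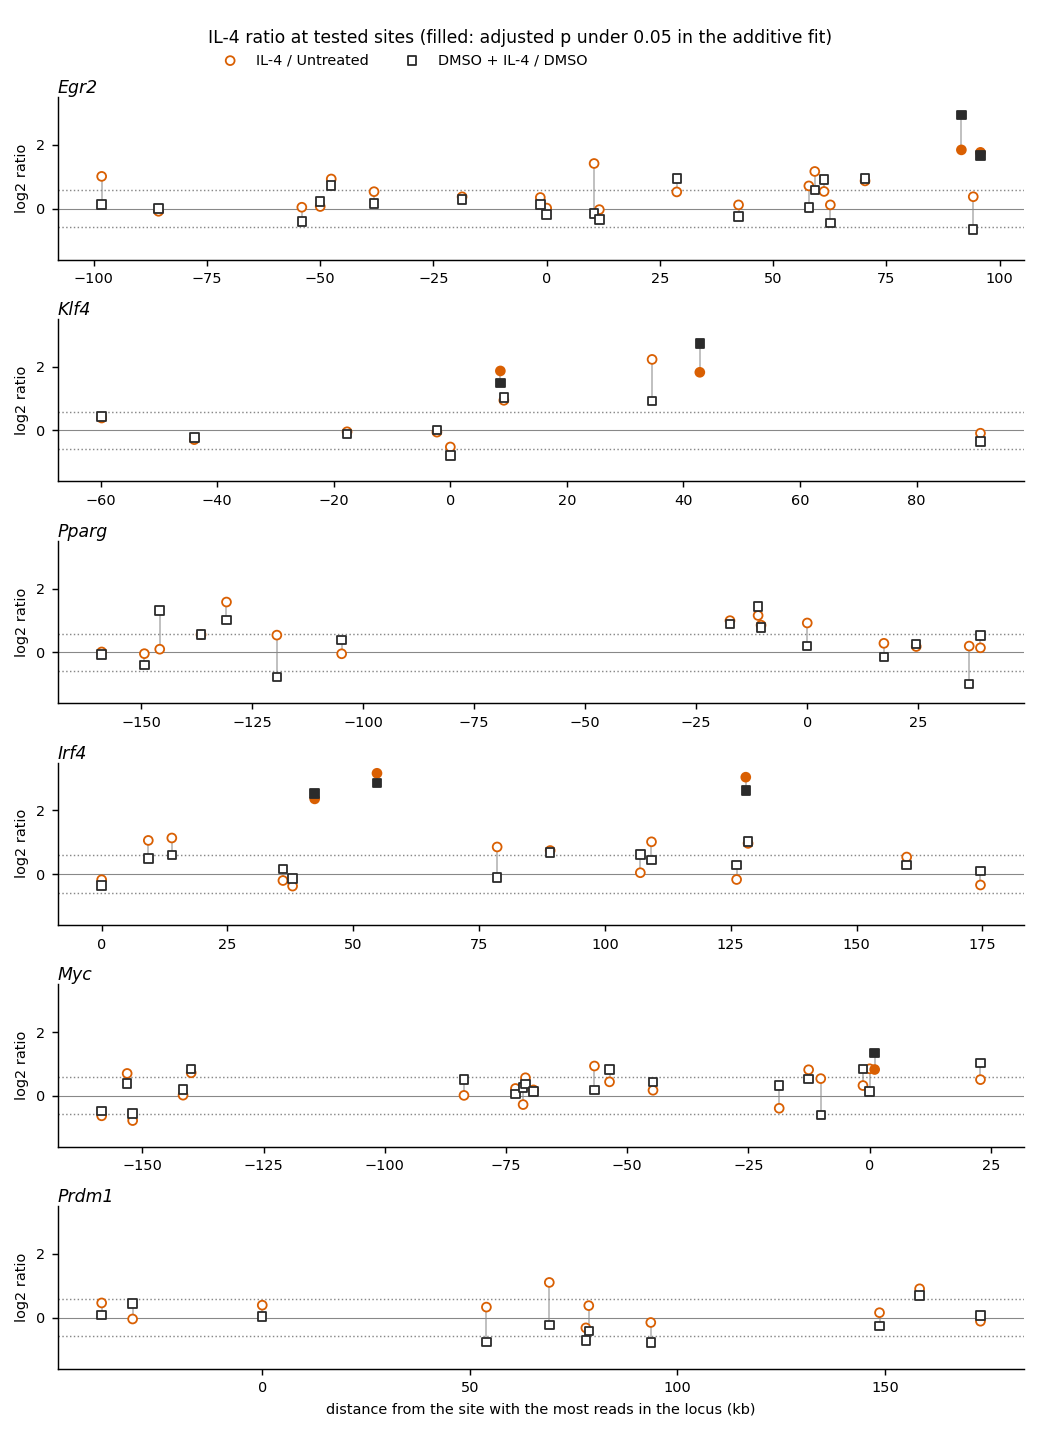
Log2 ratio of normalized reads at each tested site (vertical axis) against its distance in kb from the site with the most reads of the locus; circles are IL-4 against Untreated, squares DMSO + IL-4 against DMSO, filled where the additive fit gave an adjusted p under 0.05, and dotted lines mark 1.5-fold. The 3 filled sites of Irf4 lie at log2 ratios from 2.36 to 3.16, and Pparg and Prdm1 have none.

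At Pparg, 4 of 15 sites were higher in both IL-4 comparisons, against 8.73% of all sites. With the filter on the 4 libraries without LatA or MCSF, 2 of 13 were, against 6.86%. Those left out were Pparg site 33 and Pparg site 11, which is described in a later section. Pparg site 33 (chr6:115419309-115419637) measured 5.18 in Untreated and 9.01 in DMSO, and with IL-4 it measured 12.8 alone, 26.0 with DMSO, 48.5 with LatA and 19.9 with MCSF, and had peaks in the 4 IL-4 libraries only. It passed the filter only through the treatment libraries, with a mean of 13.2 over the other 4. Its fitted change of 1.41 ± 0.51 did not pass (adjusted p = 0.137). The strongest site, Pparg site 36 (chr6:115429989-115431099), measured 43.7 in Untreated and 70.2 in DMSO against 83.4 with IL-4 alone and 80.5 with IL-4 and DMSO, so that Untreated alone was low. It had 166 with LatA and 121 with MCSF, both with IL-4 present.

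At Prdm1, 1 site was higher in both IL-4 comparisons, Prdm1 site 31 (chr10:44258562-44259423), with 20.0 in Untreated and 32.4 in DMSO against 38.3 with IL-4 alone and 53.2 with IL-4 and DMSO (fitted log2 change 0.82 ± 0.31, adjusted p = 0.165). In DMSO against Untreated 7 of its 11 tested sites were higher and 0 lower, whereas over the 93 sites 22 were higher and 4 lower, against 16.8% and 7.24% of all sites. With median-of-ratios size factors the counts were 13 of 92 sites, against 9.69% of all, and 4 at Prdm1. With the trend with reads removed, described below, they were 11 of 93, against 10.1% of all, and 4 at Prdm1. With the filter on the 4 libraries without LatA or MCSF as well, they were 5 of 79, against 9.77%, and 2 at Prdm1. With IL-4 present in both libraries, DMSO + IL-4 against IL-4, 14 of the 93 were higher (11.2% of all sites) and 5 lower (9.8%), and at Prdm1 0 of 11 were called either way. The site with the most reads at any of the loci, Prdm1 site 8 (chr10:44100207-44101096), measured 144 in Untreated and 210 in DMSO, and with IL-4 it measured 189 alone, 215 with DMSO, 392 with LatA and 272 with MCSF.

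The LatA and MCSF libraries did not enter the 4-library IL-4 fit, but they entered the filter on mean reads. With the filter set on the 4 fitted libraries, 7 of 79 member sites were called higher, all among the 8, and 0 lower, against 3.74% and 0.717% of all sites. The site left out was Irf4 site 30. As a description of the 8 sites, which the fit chose on the 4 libraries and the filter partly on the other 2, median normalized reads were 8.88 in Untreated and 11.3 in DMSO, and with IL-4 they were 38.8 alone, 50.7 with DMSO, 88.6 with LatA and 69.7 with MCSF. Peaks were called by the authors in each library on the same reads. A peak in all 4 IL-4 libraries and in neither library without IL-4 was found at 8 of the 93 sites, against 2.84% of all tested sites. The reverse pattern, peaks in both libraries without IL-4 and in no IL-4 library, was found at 0 of 93, against 0.808%. The 8 with the IL-4 pattern were Egr2 sites 42 and 44, Irf4 sites 13 and 30, Klf4 sites 33, 40 and 42, and Pparg site 33, of which Klf4 site 40 was named after its values were seen. The fit had called 6 of them higher with IL-4. Irf4 site 30, Klf4 site 40 and Pparg site 33 passed the filter only through the treatment libraries. With the filter on the other 4 libraries, the IL-4 pattern was found at 5 of 79 sites, against 1.34% of all sites, and the reverse at 0, against 1.38%.

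**Figure D3:**
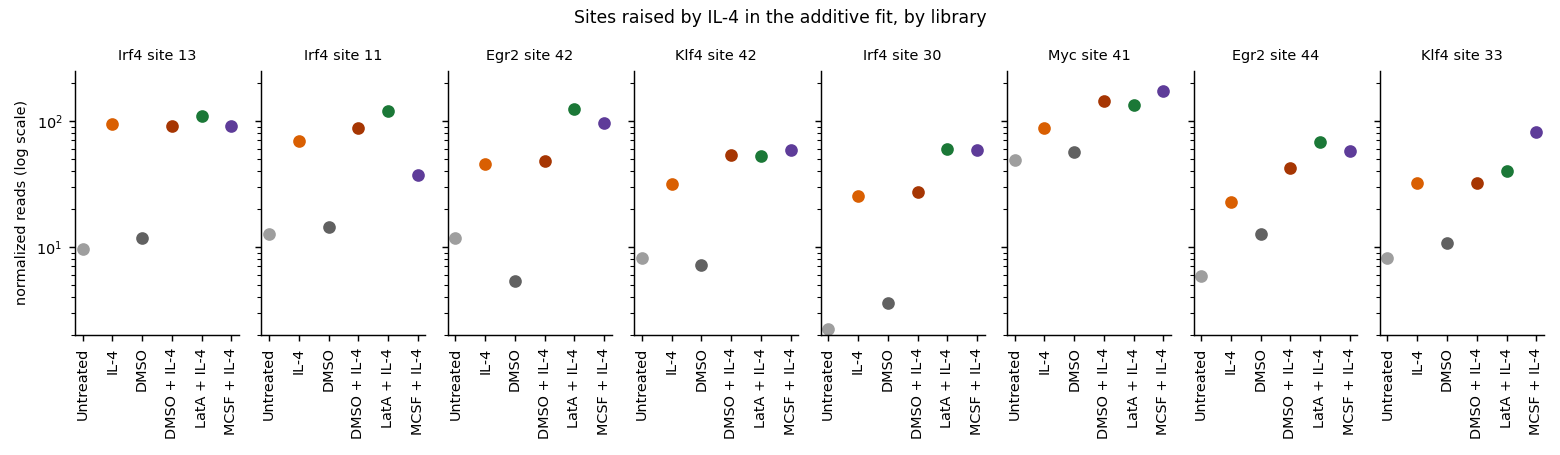
Normalized reads (log scale) in each of the 6 libraries at the 8 sites higher with IL-4 in the additive fit, ordered by adjusted p. The fit chose the sites on Untreated, DMSO, IL-4 and DMSO + IL-4. Irf4 site 30 passed the filter only through LatA + IL-4 and MCSF + IL-4, so its high values there are not a result. In every panel the 4 IL-4 libraries lie above Untreated and DMSO, and in Irf4 site 11 MCSF + IL-4 is lowest of the 4.

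Accessibility at the loci was higher again in both treatment libraries. In LatA + IL-4 against DMSO + IL-4, 50 of the 93 sites were at least 1.5-fold higher (30.1% of all sites) and 4 lower (15.7%). In MCSF + IL-4 against IL-4, 56 were higher (29.2%) and 4 lower (14.9%). In both treatment comparisons, which share no library, 36 sites were higher (15.4%) and 1 was lower (4.36%). Over the 93 sites the log2 ratio had a median of 0.64 with latrunculin A and 0.75 with MCSF, against 0.20 and 0.16 over all tested sites. With median-of-ratios size factors, 30 of 92 sites were higher with latrunculin A, against 19.4% of all sites, and 20 with both treatments, against 8.17%. The 93 include the 14 sites that passed the filter only through the treatment libraries. With the filter on the other 4 libraries, 39 of 79 sites were higher with latrunculin A (24.8% of all sites) and 3 lower (20.4%), 43 were higher with MCSF (23.6%) and 4 lower (19.5%), and 25 were higher with both (12.1%). The median log2 ratios of the 79 sites were 0.58 and 0.72, against 0.062 and 0.023 over all sites past that filter.

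Over all tested sites these treatment ratios rose with the mean reads of a site. That mean includes the treatment libraries, so part of the rise can follow from the measure itself. The tested member sites held more reads per kb than all tested sites, with medians of 81.7 and 56.6, a measure other than that of the trend. With that trend removed, 28 of the 93 sites were higher with latrunculin A and 7 lower, against 19.2% and 19.7% of all sites. With MCSF 42 were higher and 5 lower, against 19.5% and 18.4%. With the filter on the other 4 libraries as well, 19 of 79 sites were higher with latrunculin A and 6 lower, against 16.8% and 18.6%, 29 were higher with MCSF and 4 lower, against 16.5% and 17.3%, and 8 were higher with both, against 4.97%. Removing the trend moved 33 of 168 log2 ratios of the sites named by rule over the 6 comparisons, so for the better-read sites the log2 ratio without it is also given below.

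By locus, the latrunculin A counts of higher sites were 16 of 21 at Egr2, 9 of 11 at Prdm1, 9 of 16 at Irf4, 9 of 20 at Myc, 5 of 15 at Pparg and 2 of 10 at Klf4, against the 30.1% of all sites, which Klf4 lay below and Pparg near. The MCSF counts were 13, 7, 8, 12, 7 and 9 in the same order of loci, against 29.2%. With the trend removed they were 9, 6, 2, 5, 4 and 2 with latrunculin A, against 19.2%, which Irf4 at 2 of 16 lay below, and 11, 6, 6, 8, 5 and 6 with MCSF, against 19.5%. Sites lower with latrunculin A were then 5 of 20 at Myc and 2 of 15 at Pparg, against 19.7%, and 0 at the other loci. With median-of-ratios size factors, the latrunculin A counts fell to 3 at Myc, below the 19.4% of all sites, and to 4 at Irf4. With the trend removed and the filter on the other 4 libraries, the latrunculin A counts were 8 of 19 at Egr2, 4 of 9 at Prdm1, 0 of 13 at Irf4, 2 of 16 at Myc, 4 of 13 at Pparg and 1 of 9 at Klf4. The share of all sites was 16.8%, which Irf4, Myc and Klf4 lay below. Sites lower were then 5 at Myc and 1 at Pparg, against 18.6%, and 0 at the other loci. The MCSF counts of higher sites were 9, 4, 4, 4, 3 and 5 in the same order of loci, against 16.5%. The ratios of summed reads at Klf4 were 1.38 (1.25 to 1.51) with latrunculin A and 1.69 (1.54 to 1.86) with MCSF, and at Myc 1.33 (1.23 to 1.44) and 1.71 (1.58 to 1.85). At Egr2 both were close, at 1.70 (1.57 to 1.84) and 1.71 (1.58 to 1.84). Prdm1 measured 1.75 (1.59 to 1.94) and 1.57 (1.42 to 1.73), and 200 kb windows over the genome had medians of 1.21 and 1.22. Whether the treatments differ at a locus was not tested.

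A fit to all 6 libraries gave no replicate check of either treatment, since each treatment term rests on 1 library that was assumed to vary like the others. It compares those libraries and not the conditions. It called 3 sites higher with latrunculin A (1.54% of all sites) and 0 lower (0.56%), and 22 higher with MCSF (8.45%) and 1 lower (1%). At an unadjusted p under 0.05, 29 sites were higher with latrunculin A and 3 lower, against 16.9% and 5.31% of all tested sites. The calls depended on the scale. With libraries scaled by total reads, 1 site was called higher with latrunculin A (0.588% of all sites) and 5 with MCSF (3.38%), and with median-of-ratios size factors 0 and 0 (0.144% and 0.486%), so single sites are given below by their ratios and counting intervals only. The 8 sites higher with IL-4 were called under all 3 scales. The shares of all sites were 4.85% in the main fit, 3.96% with total reads and 2.74% with median-of-ratios size factors. Under both of the other scales Klf4 site 30 was also called lower with IL-4, against 0.525% and 0.579%.

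The second most read site of each locus and the largest joint treatment rise give a view of sites outside the IL-4 calls. Egr2 site 34 (chr10:67061255-67061910) measured 65.9 in Untreated and 73.8 in DMSO, and with IL-4 it measured 96.2 alone, 140 with DMSO, 209 with LatA and 226 with MCSF, and the MCSF ratio was 2.35 (1.83 to 3.03). With the trend removed, its log2 ratios were -0.015 with latrunculin A and 0.59 with MCSF. Prdm1 site 19 (chr10:44178269-44178933) had 55.5 in Untreated and 88.3 in DMSO, and with IL-4 it measured 44.2 alone, 53.2 with DMSO, 123 with LatA and 86.7 with MCSF, and the MCSF ratio was 1.96 (1.34 to 2.91), with log2 ratios of 0.63 and 0.43 once the trend was removed. Both treatment libraries were thus above their IL-4 controls at these sites, while IL-4 alone and with DMSO lay below the libraries without IL-4 at Prdm1 site 19 and above them at Egr2 site 34. Irf4 site 42 (chr13:30926242-30927094), the largest joint rise at Irf4 by the smaller of the log2 ratios of the treatments, measured 45.1 in Untreated and 55.8 in DMSO, and with IL-4 it measured 35.3 alone, 59.4 with DMSO, 131 with LatA and 101 with MCSF. The ratio was 2.85 (1.91 to 4.33) with MCSF and 2.20 (1.57 to 3.14) with latrunculin A, the log2 ratios without the trend were 0.93 and 0.56, and the site was not called for IL-4 (adjusted p = 0.897).

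Other sites were named by the same rule. Prdm1 site 20 (chr10:44179015-44179585), next to site 19, had log2 ratios of 1.49 with latrunculin A and 1.25 with MCSF. Pparg site 13 (chr6:115310767-115311382) had 1.26 and 0.79, and Myc site 38 (chr15:61877880-61878201) had 1.11 and 1.13. These 3 sites had means from 24.9 to 35.1 normalized reads, so counting error is large, and Prdm1 site 20 and Myc site 38 passed the filter only through the treatment libraries. Among better-read sites, Myc site 28 (chr15:61831135-61831610) had 0.64 and 0.56, Klf4 site 51 (chr4:55636257-55636776) 0.57 and 0.72, Irf4 site 18 (chr13:30830232-30831029) 1.08 and 0.02, and Pparg site 15 (chr6:115325288-115326058) -0.23 and 0.79. All sites with a mean of at least 100 had medians of 0.56 and 0.59, and those with at least 50 had 0.53 and 0.54, so that the ratios of Myc site 28 and Klf4 site 51 were about those of other sites as well read. With the trend removed, the ratios were 0.027 and -0.068 at Myc site 28, -0.041 and 0.091 at Klf4 site 51, 0.50 and -0.55 at Irf4 site 18, and -0.78 and 0.24 at Pparg site 15.

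**Figure D4:**
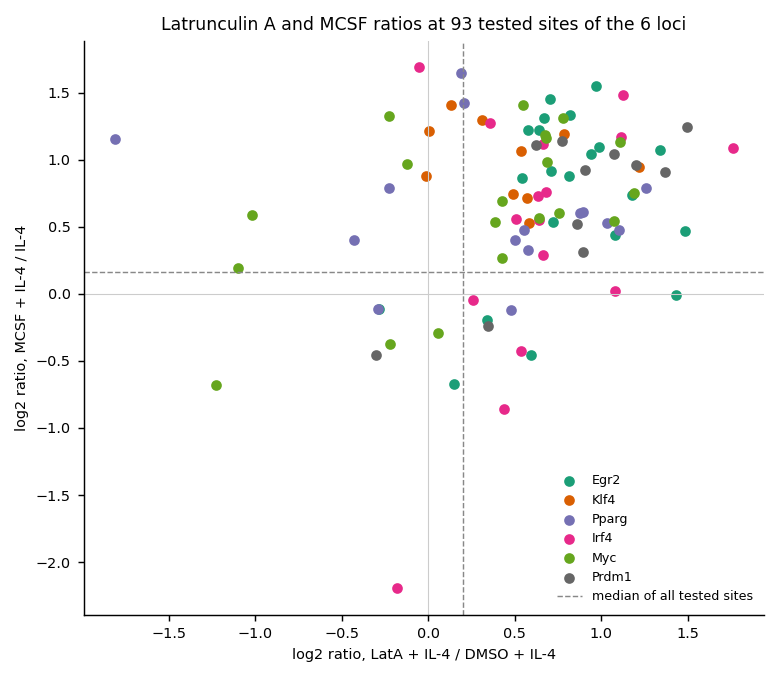
Log2 ratio of LatA + IL-4 to DMSO + IL-4 (horizontal axis) and of MCSF + IL-4 to IL-4 (vertical axis) at each of the 93 tested sites, coloured by locus; dashed lines are the medians of all tested sites, 0.20 and 0.16. 64 of the 93 points lie above both medians, against 35% of all tested sites (54 of 79, against 34.6%, with the filter on the 4 libraries without a treatment), and Pparg site 11 lies at -1.81 and 1.15.

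Single sites departed from the common direction. Irf4 site 40 (chr13:30911826-30912185), named after its values were seen, measured 20.7 in Untreated and 31.5 in DMSO, and with IL-4 it measured 30.4 alone, 38.4 with DMSO and 33.7 with LatA, but 5.86 with MCSF. The ratio of MCSF + IL-4 to IL-4 was 0.192 (0.0584 to 0.499), on 5 reads in MCSF + IL-4. Irf4 site 3 (chr13:30761017-30761611), also named after its values were seen, had the highest MCSF level relative to its IL-4 library among the tested sites of the loci, with 110 against 33.4. It measured 45.3 in LatA + IL-4 against 47.0 in DMSO + IL-4. The MCSF ratio was 3.30 (2.21 to 5.04). The 1 site lower in both treatment comparisons was Myc site 2 (chr15:61734630-61735384), with 34.4 in IL-4 against 21.1 in MCSF + IL-4 and 28.5 in DMSO + IL-4 against 11.6 in LatA + IL-4. The ratio was 0.407 (0.179 to 0.870) with latrunculin A and 0.614 (0.327 to 1.11) with MCSF, an interval that includes 1.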

How the data were processed

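The members and site lists were chosen with earlier results of these data known. Per the study's methods, reads were trimmed with Cutadapt, aligned to mm9 with Bowtie2 (several alignments per read), deduplicated with Picard and freed of blacklisted and mitochondrial reads. Peaks were called with MACS2 on shifted read ends, and featureCounts gave the reads per site. The versions of these tools, and the way sites were merged over libraries, are not given in the sources used here. The deposited signal is CPM scaled by the authors with edgeR TMM factors. Within each library, values fell on steps of equal size, each worth 1 read, which gave back the read counts for 100% of values (within 0.01 read). The deposited peak lists give fold enrichment, a ratio, and a −log10 q-value, used only at a stricter threshold; the deposited score column was not used.

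Normalized reads are recovered reads divided by effective library size times the geometric mean of sizes. Sites needed a mean of 20 normalized reads, and 1 read was added before log2 ratios. Calls used 1.5-fold, as in the study's methods. Ratio intervals (95%) are exact conditional binomial (Clopper-Pearson). The filter stands for 16.2 to 27.0 reads per library. The additive fits used edgeR 4.0.16 (glmQLFit, glmQLFTest) in R 4.3.3 on recovered reads, with Benjamini-Hochberg adjustment over 132057 sites. Scripts ran in Python 3.11.15 with scipy 1.17.1 and were tested on simulated data. Groups came from the labels, and the 6 comparisons are those described.

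For each locus the text names the 2 sites with the most reads, the 2 largest rises and the largest fall in both IL-4 comparisons, and the largest rise and fall in both treatment comparisons, or those of them that the description needs; other sites are marked as named after their values were seen. Alternatives tried were other scales, 5 added reads, no filter or one of 50 reads, removal of the trend with reads, the other IL-4 library as control, peaks at a q under 0.01, and sums without the strongest site. Genes, site sequences and markers were not analysed, since the annotation used here is of GRCm38 and no coordinates were converted.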

Additional observations from a re-analysis of the deposited data

Results flagged for a closer look

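Latrunculin A and MCSF gave calls of opposite direction at 2 of the 93 sites, against 3.40% of all tested sites. Pparg site 11 (chr6:115299420-115300041) had a log2 ratio of -1.81 for latrunculin A, against its vehicle, and of 1.15 for MCSF, each with IL-4 present. Its reads numbered 12 in Untreated and 9 in DMSO, and with IL-4 they numbered 29 alone, 14 with DMSO, 4 with LatA and 55 with MCSF, and a peak was called only in IL-4 and MCSF + IL-4. It passed the filter only through the treatment libraries. Myc site 6 (chr15:61747957-61748469) had -1.02 with latrunculin A and 0.59 with MCSF, on 37 reads in DMSO + IL-4 against 21 in LatA + IL-4 and 33 in IL-4 against 42 in MCSF + IL-4. The MCSF ratio at this site, 1.52 (0.940 to 2.47), has an interval that includes 1, and its log2 value was 0.52 with libraries scaled by total reads and 0.45 with median-of-ratios size factors, both under 1.5-fold. With 1 library per group, the difference between the treatments was not tested at either site. No site was called in opposite directions by the pair of IL-4 comparisons or by the pair of vehicle comparisons, against 2.50% and 2.83% of all tested sites.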

How the results depend on the processing

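With 1 library per group, no replicate could be left out and ratios have no test; depth limits sites with few reads, and the cause of each change below was not tested unless it follows from fewer or more sites. No paired analysis by replicate number was possible because each group has 1 library, while the additive fit takes the libraries without and with vehicle as 2 pairs. Counts are given as sites higher, in the order IL-4 without vehicle, IL-4 with vehicle, vehicle without IL-4, vehicle with IL-4, latrunculin A, MCSF, both IL-4 comparisons and both treatment comparisons. With no filter they were 107, 104, 86, 66, 128, 150, 56 and 80 of 278 (of all sites 24.6, 24.9, 22.4, 22.7, 27.5, 27.5, 8.66 and 10.8%), and sites lower were 37, 49, 43, 50, 44, 42, 11 and 10 (22.4, 24.1, 21.3, 22.6, 28, 27.1, 6.87 and 9.74%). With a filter of 50 reads they were 12, 10, 6, 4, 20, 20, 7 and 12 of 32 (21.9, 13.6, 16.9, 5.89, 44.7, 46, 10.3 and 27.5%), and sites lower were 0, 3, 1, 1, 0, 1, 0 and 0 (5.4, 10.1, 2.1, 3.27, 6.04, 5.65, 2.29 and 1.8%). With a 2-fold threshold, chosen after seeing the data, they were 17, 14, 5, 0, 20, 33, 9 and 7 of 93 (9.32, 7.21, 3.88, 2.99, 11.5, 11.8, 3.93 and 2.86%), and sites lower were 0, 0, 1, 1, 4, 1, 0 and 0 (2.39, 3.73, 2.07, 3.05, 5.77, 5.08, 0.426 and 0.809%). Median-of-ratios size factors moved the median log2 ratio of all tested sites by -0.12 for IL-4 against Untreated, -0.15 for DMSO against Untreated, -0.20 for latrunculin A and -0.14 for MCSF. With them, 13 sites were higher in DMSO against Untreated (9.69%), 30 with latrunculin A (19.4%) and 20 with both treatments (8.17%), and 1 was lower in both IL-4 comparisons (3.22%). Scaling by total reads moved the median for DMSO against Untreated by -0.12. With the trend with reads removed, 11 sites were higher in DMSO against Untreated (10.1% of all), 9 in DMSO + IL-4 against IL-4 (9.98%), 28 with latrunculin A (19.2%) and 19 with both treatments (7.89%), and 7 were lower with latrunculin A (19.7%) and 1 in both IL-4 comparisons (3.18%). The MCSF ratio of Myc site 40 then changed sign, from 0.60 to -0.023. Adding 5 reads left 1 site lower in IL-4 against Untreated (6.72%) and 2 in DMSO + IL-4 against IL-4 (7.61%). With the filter on the 4 libraries without a treatment, chosen after seeing the data, 2 sites were lower in DMSO against Untreated (8.01%), and the other 15 counts stayed within 1.5 times. With the other IL-4 library as control, 0 sites were lower with both treatments, a count for which no share of all sites was computed. The additive fit called 8 sites higher with IL-4, 3 with latrunculin A and 22 with MCSF, and 0, 0 and 1 lower. Refitted after seeing the data, it called 1 site higher with latrunculin A (0.588%) and 5 with MCSF (3.38%) when scaled by total reads, and 0 and 0 (0.144% and 0.486%) with median-of-ratios size factors, whereas the same 8 sites were called for IL-4 under both. Those IL-4 calls stood beside 3.96% and 2.74% of all sites, and both scales also called Klf4 site 30 lower (0.525% and 0.579%). With the filter of the additive fit on the 4 fitted libraries, also chosen after seeing the data, 7 sites were called higher with IL-4 (3.74%). Median-of-ratios size factors moved 18 of the 36 ratios of summed reads outside their counting intervals, and removal of the trend moved 33 of 168 ratios of named sites. Summed over tested sites only, also chosen after seeing the data, the Klf4 ratio in the DMSO pair was 0.981 in place of 1.13. Peak counts at a q under 0.01 stayed within 1.5 times of those reported in all 36 cases.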

Other observations

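Among the 185 sites below the filter, 4 had a peak in all 4 IL-4 libraries and in neither library without IL-4, against 0.674% of all sites below the filter: Egr2 site 13 (chr10:66951283-66951513), Irf4 site 7 (chr13:30787115-30787419), Klf4 site 36 (chr4:55569913-55570158) and Prdm1 site 32 (chr10:44259677-44259892). Their means were 16.1, 19.9, 13.6 and 10.6 normalized reads, in that order, and they were singled out after their values were seen. No other site below the filter had this peak pattern, and 0 had the reverse pattern, against 2.22%. Most of these sites had little signal, with 26 that had no peak in any library and 93 with a peak in 1.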
